A study of Mus musculus with 6 samples.

Results

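The genes described are the Wnt pathway genes of cultured mouse spermatogonia: secreted ligands, their receptors, secreted antagonists and enhancers, and the cytoplasmic and nuclear proteins that carry the signal. They were taken by gene symbol (Wnt, Fzd, Lrp5 and Lrp6, Dkk, Sfrp, Rspo, Lgr4 to Lgr6, Dvl, Axin1 and Axin2, Ctnnb1, Lef1 and symbols beginning with Tcf7), which matched 58 of the 32285 rows of the count table. Of these, 56 were protein-coding genes and 2 were noncoding neighbours, Fzd10os and Rspo4os. All libraries came from germline stem (GS) cells, a spermatogonial culture set up from testes of DBA/2 pups 2 to 3 days old that carry an EGFP transgene under an actin promoter, DBA/Tg14(act-EGFP-OsbY01). The cells were grown on mouse embryonic fibroblasts (MEFs) with GDNF and FGF2, frozen, kept for about 6 months either on the International Space Station (Space, 3 libraries) or on Earth (Ground, 3 libraries), and collected on the day after thawing without passage. The groups follow the sample titles. The treatment label of each of the 6 libraries names the other group, so the sign of every Space minus Ground difference rests on the titles.

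In the canonical Wnt pathway a lipid-modified Wnt ligand binds a Frizzled receptor (Fzd) together with Lrp5 or Lrp6, Dishevelled (Dvl) is recruited, and the Axin complex that degrades beta-catenin (Ctnnb1) is held back. Beta-catenin then acts in the nucleus with Tcf and Lef factors on target genes such as Axin2. R-spondins bind Lgr receptors and raise the amount of Frizzled at the membrane, and Sfrp and Dkk proteins block ligands or Lrp co-receptors. In the testis, Wnt signals from somatic cells act on undifferentiated spermatogonia, and cultures of these cells respond to Wnt ligands.

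Values of a group are listed in the order of replicate numbers 1 to 3. Each library held 19015985 to 24110916 counts. Levels are given as CPM, the usual count per library size (cpm function of edgeR) after TMM scaling, a trimmed mean of log ratios between libraries, and levels of different genes are compared as CPM per kb of exon. Markers of the labelled cell type were present: 18 of 18 genes of undifferentiated spermatogonia passed the filter on low counts, with a summed level of 3047 to 3500 CPM. The 26 markers of fibroblasts, the feeder cells, summed to 1214, 1230 and 1246 CPM for Ground and 948, 1241 and 1089 CPM for Space (exact 2-sided permutation p = 0.3, where the smallest possible is 0.1). Most of the sum came from Fn1 and Col5a1. By gene 25 of the 26 were lower in Space, against 51.3% of all tested genes, with a median log2 fold change of -0.32. In edgeR 0 of the 26 had an adjusted p under 0.05, against 0.0% of all tested genes. By the same test 5 had an unadjusted p under 0.05 (Thbs1, Timp2, Col1a2, Vim and Col3a1, all lower in Space). Of all tested genes 0.609% had one, 0.45% with a lower level in Space. The groups did not overlap in 2 of the 26 markers, against 3.59% of all tested genes. The part of the feeder cells in the values of the Wnt genes was not tested. In a mixed culture, fewer cells of a type and less RNA per cell cannot be told apart. The 12 markers of testis somatic cells summed to 31.8 to 34.5 CPM, with Wt1 at 16.1 to 19.7 CPM, and Hsd3b1 was at 0. The markers of differentiating germ cells summed to 546 to 623 CPM and those of macrophages and endothelium to 26.3 to 44.6 CPM. Genes on the opposite strand overlap 18 of the 41 tested protein-coding members, among them Ctnnb1, Dvl2, Axin1, Sfrp2 and Rspo1. The strand setting of the counting was not stated, so reads in the overlap may have been added to their counts or lost from them. With genes on either strand, 20 of the 41 overlap another gene. Libraries also resembled each other across the groups. The median chi-square of counts relative to sampling noise was 1.56 for Ground-1 with Space-3 and 2.68 for Ground-2 with Space-2. It was 2.59 for Ground-3 with Space-1 and 5.20 to 10.97 for the other 12 pairs of libraries. This comparison used total counts without TMM scaling. Mitochondrial genes made up 3.09, 11.5 and 5.69% of counts in the Ground libraries and 2.51, 7.12 and 2.81% in the Space libraries. The part of this share in the chi-square values was not tested.

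The first question was whether Wnt pathway genes differ between Space and Ground GS cells. No member passed the test. Of 56 protein-coding members, 41 passed the filter and were tested, 17 of them higher and 24 lower in Space (58.5% lower, against 51.3% of all tested genes), with a median log2 fold change of -0.021 against -0.0020 over all 15104 genes tested. In edgeR's quasi-likelihood test 0 of the 41 had a Benjamini-Hochberg adjusted p under 0.05 (smallest 0.9999), where 0.0% of all tested genes passed. At an unadjusted p under 0.05 there were also 0 members by edgeR, DESeq2 or limma-voom, against 0.609% of all tested genes by edgeR (0.159% higher and 0.45% lower in Space). Without any difference, a test at its nominal rate would give a share near 0.05 on average, and the share here was lower. Many genes shared the same order of libraries, so this share alone does not show whether the test was conservative. The fit had no term for the resemblance of libraries across the groups, and that spread is part of the SE. The lack of members that passed does not show equal levels. The 95% interval of the log2 fold change stayed between -1 and 1 for 33 of the 41, or 80.5%, against 84.0% of all tested genes, so a change of more than 2-fold lay outside the interval for most members. The other 8 were members with few counts or a wide spread between libraries: Wnt7b, Wnt2, Wnt7a, Fzd1, Sfrp5, Dkk2, Rspo1 and Lgr6. The groups did not overlap in 2 of the 41 members, Lgr6 and Tcf7l1, or 4.88%, where 3.59% of all tested genes did not overlap.

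**Figure D1:**
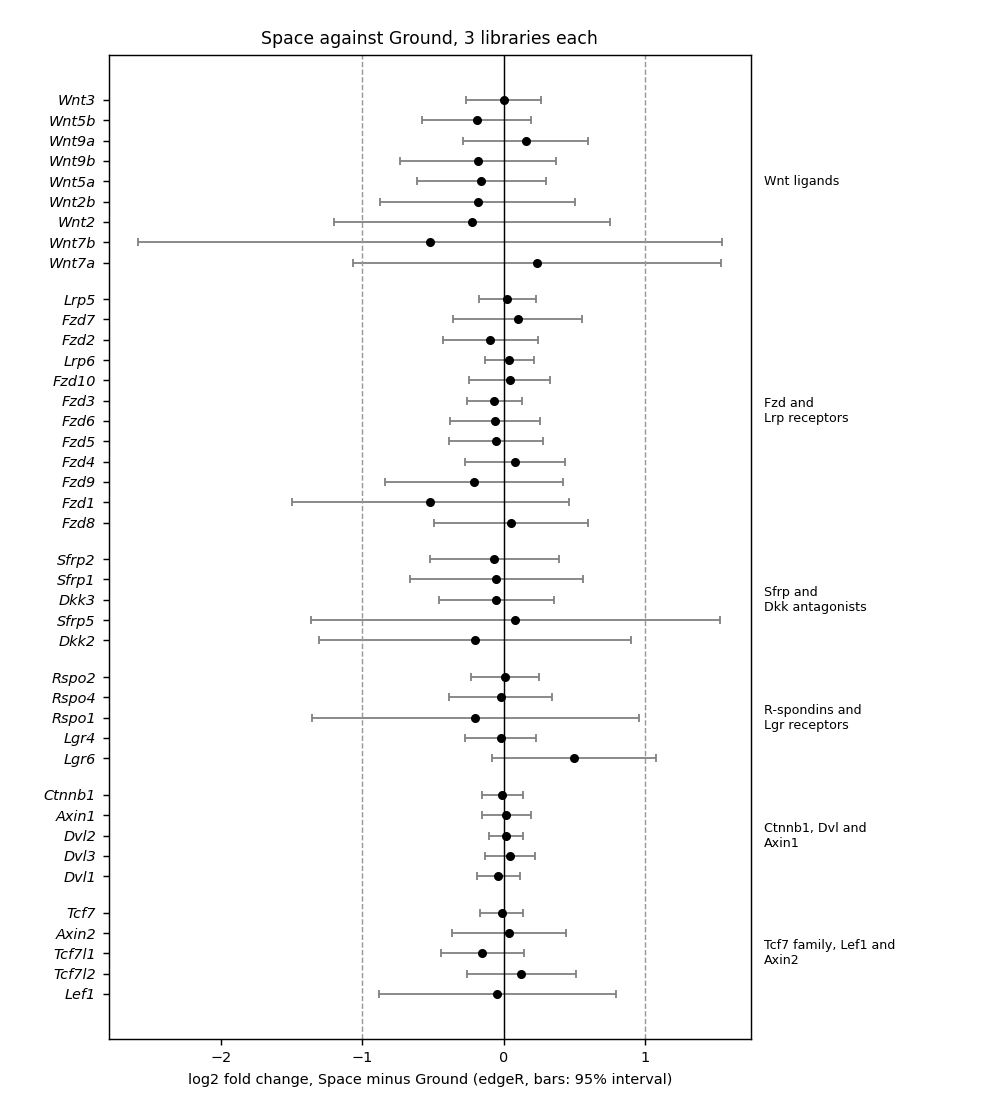
log2 fold change of the 41 tested protein-coding members, Space minus Ground (x axis), by role (y axis), from 3 libraries per group. Points are edgeR estimates, bars their 95% intervals, and dashed lines mark 2-fold. All 41 intervals include 0, from narrow ones for Dvl2 and Ctnnb1 to the widest one for Wnt7b.

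Levels differed between roles. The most abundant members per length were Ctnnb1, at a mean of 116.5 CPM per kb, and Tcf7, a nuclear partner of beta-catenin, at 105.9 CPM per kb. Axin1 had 42.4, Dvl2 had 34.5 and the antagonist Sfrp2 had 26.4 CPM per kb. The highest ligand was Wnt3 with 19.5, and the highest receptor was Lrp5 with 15.7 CPM per kb. The spread between libraries differed by role. The highest library exceeded the lowest by a median of 1.13 times in the 5 cytoplasmic members, 1.31 times in the 12 receptors, 1.53 times in the 9 tested ligands and 1.93 times in the 5 tested antagonists, against 1.31 times over all tested genes. Counts differed by role as well, and low counts alone widen this ratio. Each cytoplasmic member had at least 1560 counts per library, while the ligand Wnt7a had 5 to 12 and the antagonist Dkk2 had 14 to 37. Roles were not compared at matched counts. Over all roles the highest library was more than 2 times the lowest in 9 of 41 members, or 22.0%, against 18.8% of all tested genes, and more than 1.5 times in 16, or 39.0%, against 34.7%.

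**Figure D2:**
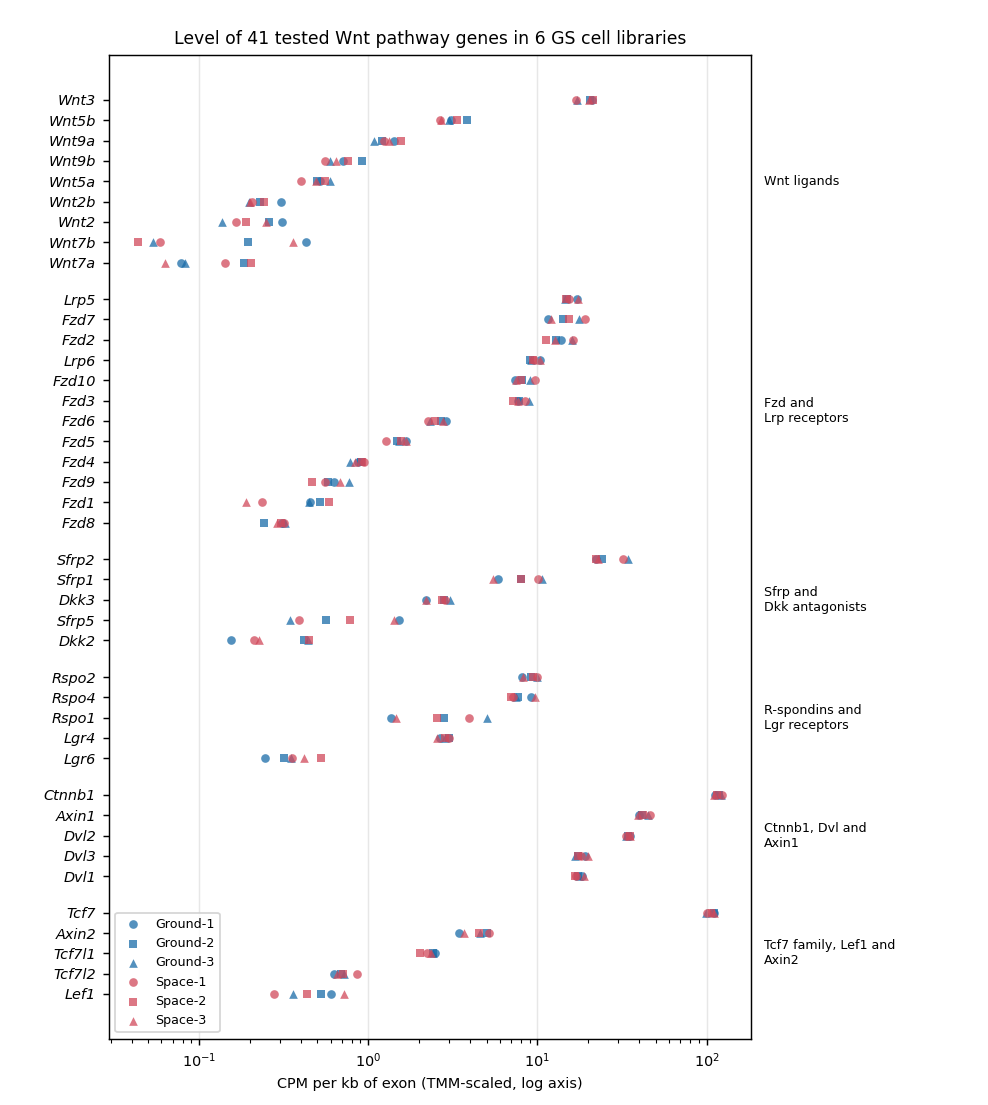
Level in each library (x axis, CPM per kb of exon, log axis) of the 41 tested members by role (y axis). Colours mark the group and symbols the replicate number. Ctnnb1 and Tcf7 lie near 100 CPM per kb, Wnt3 stands apart from the other ligands, and the 6 points of Wnt7b, Sfrp5, Rspo1 and Lef1 are spread widely without separating by colour.

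Among the ligands, Wnt3, a canonical ligand needed for gastrulation, dominated. It had 64.9, 62.7 and 52.4 CPM in the Ground libraries against 52.1, 65.8 and 62.3 CPM in the Space libraries. Ground-3 and Space-1 were the lowest libraries, and the groups overlapped fully (mean ± SD over 3 libraries, 59.99 ± 6.6 CPM for Ground and 60.1 ± 7.2 CPM for Space, log2 fold change 0.00086, SE 0.11). Per length, Wnt3 was 6.30 times the next ligand, Wnt5b, and the ranges of these ligands over the 6 libraries did not overlap. Wnt5b and Wnt5a, ligands mostly known for signalling without beta-catenin, had means of 3.10 and 0.510 CPM per kb. Between them came Wnt9a with 1.31 and Wnt9b, known from kidney development, with 0.696 CPM per kb. The library ranges of Wnt9b and Wnt5a overlapped, so their order was not resolved. The log2 fold changes of Wnt5b, Wnt9a, Wnt5a and Wnt9b lay between -0.19 and 0.16, with standard errors of 0.17 to 0.24.

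The promoter window of Wnt3, 250 bases before to 50 bases after the start in RefSeq on GRCm38.p6, is shown because Wnt3 was the ligand with the highest level in these libraries. It lies on the plus strand at chr11:103773925-103774224, and capitals mark a match to the Tcf and Lef consensus (CTTTG followed by AA, AT, TA or TT, on either strand), which begins 18 bases after the start site.
Wnt3: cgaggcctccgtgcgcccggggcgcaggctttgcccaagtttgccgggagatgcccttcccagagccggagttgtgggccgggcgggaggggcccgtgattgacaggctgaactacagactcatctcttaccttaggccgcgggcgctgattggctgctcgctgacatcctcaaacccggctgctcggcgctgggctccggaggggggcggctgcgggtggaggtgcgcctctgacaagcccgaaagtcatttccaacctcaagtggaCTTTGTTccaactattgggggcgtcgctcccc
Promoter sequences of 38 of the 58 members were matched, 47 windows in all. Of those 47 windows 7 held such a match, or 14.9%, and 16.9% of all 32851 promoter windows did. A match is a run of letters and no evidence of binding.

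Wnt7b, the ligand with the widest spread, was chosen for description after its values were seen. It had 2.10 CPM in Ground-1 (51 counts), 0.958 in Ground-2 (18 counts) and 0.263 in Ground-3 (6 counts). The 3 Space values were 0.288 CPM (7 counts), 0.213 CPM (4 counts) and 1.76 CPM (44 counts). Ground-1 and Space-3 were thus high, Ground-2 was intermediate, and Ground-3, Space-1 and Space-2 were low. The exact 95% Poisson intervals, which cover counting error only, were 1.56 to 2.76 CPM in Ground-1, 0.568 to 1.51 CPM in Ground-2 and 0.0581 to 0.546 CPM in Space-2. The highest library was 9.85 times the lowest, the widest ratio of the tested members, while the groups overlapped (log2 fold change -0.52, SE 0.89, 95% interval -2.59 to 1.54). Without Space-3 the value was -2.11 (SE 0.89, unadjusted p = 0.0472 and adjusted p = 0.9999 in edgeR), and without Ground-1 it was 0.38 (SE 0.98), with the opposite sign. The estimate thus turned on these libraries, and leaving out any of the other 4 gave -0.99 to -0.12. Wnt7b overlaps AU022754 on the opposite strand.

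The filter removed 10 of the 19 ligands. Wnt11, a ligand of the branch without beta-catenin, had 28 counts in Ground and 16 in Space. Wnt4, required for female gonad development, had 11 and 12 counts, and Wnt3a, often added to cultures as a recombinant ligand, had 9 and 11. Wnt16 had 13 counts over the 6 libraries, Wnt10a had 12, Wnt8b had 9, Wnt8a had 6, Wnt10b had 4 and Wnt1 had 1. Wnt6, a ligand of Sertoli cells in the testis, had 0 counts in all 6 libraries, which allows a level of up to 0.0224 CPM over the pooled libraries (3 counts). In a fit without the filter, edgeR gave the 9 ligands with counts unadjusted p of 0.272 or more.

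Of the receptors, Lrp5 and Lrp6, the co-receptors of canonical signalling, and 10 Frizzled genes were all tested. The upper group held Lrp5, Fzd7 and Fzd2 with 15.7, 15.0 and 13.8 CPM per kb, whose library ranges overlapped from one to the next. Lrp6, Fzd10 and Fzd3 followed with 9.64, 8.28 and 7.93 CPM per kb, and their ranges overlapped likewise. Fzd6, Fzd5 and Fzd4 had 2.57, 1.53 and 0.873 CPM per kb, and the lowest were Fzd9, Fzd1 and Fzd8 with 0.613, 0.405 and 0.297. Lrp5, Lrp6, Fzd7, Fzd2, Fzd10 and Fzd3 thus stood above the other receptors, and the ranges of Fzd3 and Fzd6 did not overlap. The 12 log2 fold changes had a median of -0.012, 6 in each direction, from -0.52 for Fzd1 to 0.099 for Fzd7.

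Fzd7, a Frizzled known from stem cells of several tissues, varied most among the abundant receptors. It had 52.1, 64.5 and 79.9 CPM in the Ground libraries against 86.4, 69.9 and 54.2 CPM in the Space libraries. Ground-3 and Space-1 were highest and Ground-1 and Space-3 lowest, and each group spanned most of the whole range (log2 fold change 0.099, SE 0.20, 95% interval -0.36 to 0.55). Fzd2 and Fzd10 were also highest in Ground-3 and Space-1, with 58.9 and 59.4 CPM for Fzd2 and 29.2 and 31.4 CPM for Fzd10. Lrp5 showed the opposite order in part, with its highest values of 167.4 CPM in Ground-1 and 169.6 in Space-3. Lrp6 had 142.2 CPM in Ground-1 and 142.0 in Space-3, and 123.05 to 130.1 CPM in the other libraries. Ground-3 with Space-1 were the 2 highest libraries in 5 of the 12 receptors, against 23.5% of all tested genes, and Ground-1 with Space-3 in 4 of 12, against 20.0%. The promoter window of Fzd7, shown for the receptor with the widest spread at high level, lies on the plus strand at chr1:59481897-59482196 of GRCm38.p6 (RefSeq) and holds 1 match to the same consensus, in capitals, beginning 130 bases before the start site on the opposite strand.
Fzd7: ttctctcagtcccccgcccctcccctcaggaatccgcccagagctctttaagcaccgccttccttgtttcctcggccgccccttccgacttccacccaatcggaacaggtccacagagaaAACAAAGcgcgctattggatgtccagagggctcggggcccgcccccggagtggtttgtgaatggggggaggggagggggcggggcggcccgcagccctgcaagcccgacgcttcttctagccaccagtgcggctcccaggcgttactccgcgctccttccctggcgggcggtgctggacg

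Fzd1, named after its values were seen, was low in 2 of the Space libraries. It had 1.89, 2.18 and 1.89 CPM in the Ground libraries against 0.988, 2.45 and 0.800 CPM in the Space libraries. Space-1 and Space-3 lay below all Ground libraries and Space-2 above them, so the groups overlapped (log2 fold change -0.52, SE 0.42, edgeR adjusted p = 0.9999). The fibroblast marker sum was lowest in the same libraries, at 948 CPM in Space-1 and 1089 in Space-3 against 1214 to 1246 CPM in the other 4. The part of the feeder cells in this value was not tested. Without Space-2 the log2 fold change of Fzd1 was -1.15 (SE 0.30, unadjusted p = 0.0078 and adjusted p = 0.9998 in edgeR), which leaves out the Space library above the Ground values. Leaving out any of the other 5 libraries gave -0.55 to -0.23 with unadjusted p from 0.292 to 0.599. The noncoding gene Fzd10os, which lies 150 bases from Fzd10 on the other strand, had 4.31 to 4.82 CPM in Ground and 4.42 to 5.96 CPM in Space (log2 fold change 0.24, SE 0.18).

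Among the antagonists, Sfrp2 and Sfrp1, secreted proteins that bind Wnt ligands, were the abundant ones. Sfrp2 had 48.0, 52.0 and 74.2 CPM in the Ground libraries against 69.2, 48.1 and 49.2 CPM in the Space libraries. Sfrp1 had 25.5, 35.0 and 46.3 CPM in the Ground libraries against 44.2, 35.0 and 23.96 CPM in the Space libraries. Both genes were highest in Ground-3 and Space-1, and the group means were close (mean ± SD of Sfrp1 over 3 libraries, 35.6 ± 10.4 CPM for Ground and 34.4 ± 10.1 CPM for Space, log2 fold change -0.050, SE 0.26). The fibroblast marker sum was 1246 CPM in Ground-3 and 948 CPM in Space-1, and the part of the feeder cells in these values was not tested. Dkk3, a member of the Dickkopf family that does not act as a typical Wnt inhibitor, had 7.37 to 10.2 CPM with Ground-3 and Space-1 again highest. In all, Ground-3 and Space-1 were the 2 highest libraries in 3 of the 5 tested antagonists, against 23.5% of all tested genes.

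Sfrp5 showed the reverse order at a low level. Its values were 2.88, 1.07 and 0.658 CPM in the Ground libraries against 0.741, 1.49 and 2.68 CPM in the Space libraries, or 70, 20, 15, 18, 28 and 67 counts. Ground-1 and Space-3 were high, as for Wnt7b, and the ratio of the highest to the lowest library was 4.38. The difference between the groups was far smaller than this spread (log2 fold change 0.083, SE 0.62, 95% interval -1.36 to 1.53). Dkk2, an inhibitor that binds Lrp co-receptors, had 0.576 to 1.62 CPM in Ground and 0.782 to 1.65 CPM in Space. Dkk1, a classical Lrp inhibitor and Wnt target, had 1 count in all, Dkk4 had 3 and Sfrp4 had 10, and these genes were not tested.

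**Figure D3:**
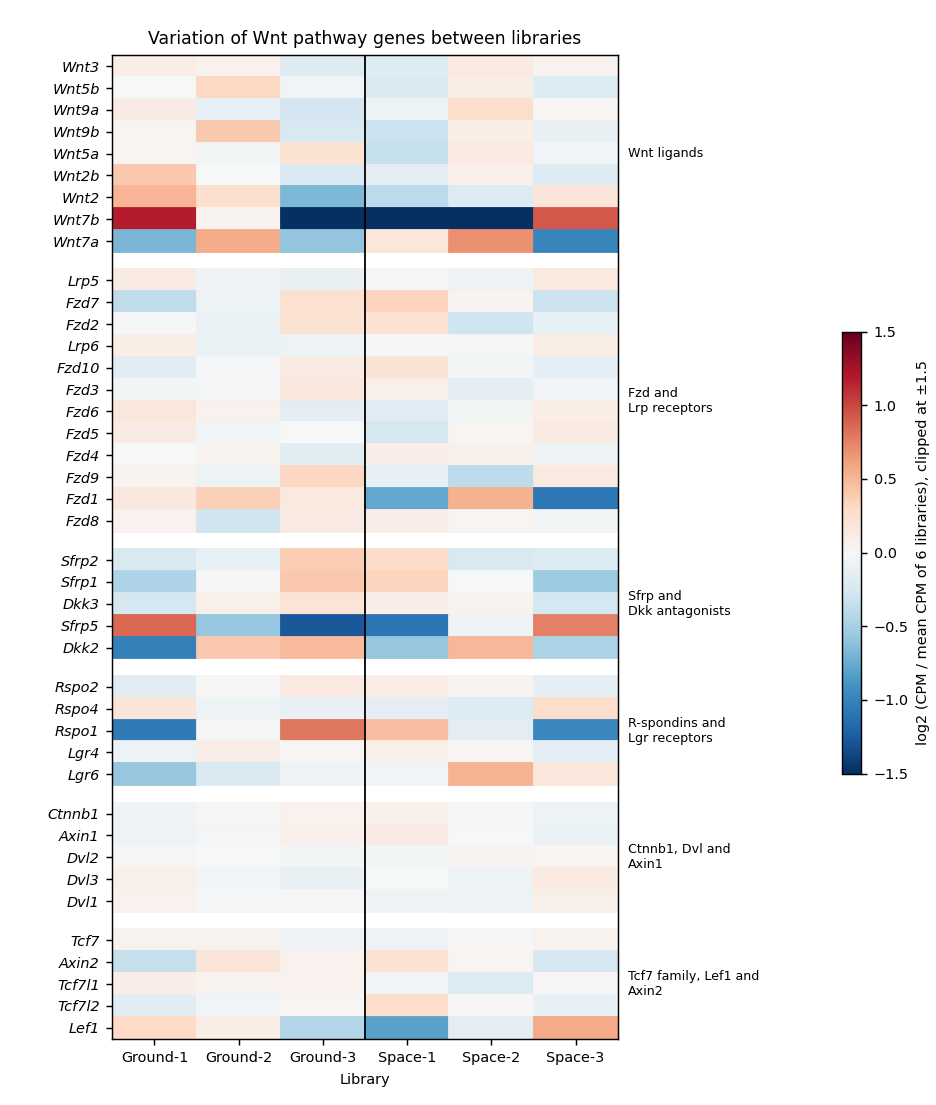
Level of each tested member in each library relative to its mean over the 6 libraries (colour, log2 scale, clipped at 1.5 in both directions), with genes by role on the y axis and libraries on the x axis. Ground-1 and Space-3 share a colour in Wnt7b, Sfrp5, Lef1 and Rspo1, as do Ground-3 and Space-1, whereas Ctnnb1, Dvl and Tcf7 stay near white.

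The R-spondin genes and the receptors Lgr4, Lgr5 and Lgr6 form the part of the pathway that stabilises Frizzled. Rspo2 and Rspo4 were the main R-spondins with 9.14 and 8.02 CPM per kb, and their library ranges overlapped. Lgr4, the most broadly expressed of these receptors, had 2.82 CPM per kb and varied little, between 15.0 and 17.7 CPM over the 6 libraries. Rspo1, a factor of ovary development, had 2.64, 5.43 and 9.69 CPM in the Ground libraries against 7.66, 4.96 and 2.84 CPM in the Space libraries. Ground-3 and Space-1 were the high libraries and Ground-1 and Space-3 the low ones, a range of 3.68 times. The groups overlapped (log2 fold change -0.20, SE 0.50, 95% interval -1.35 to 0.96). Rspo4 was highest in Ground-1 and Space-3 instead, with 21.7 and 23.1 CPM against 16.5 to 18.1 in the other libraries.

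Lgr6 had the smallest p of all tested members. It had 1.69, 2.18 and 2.41 CPM in the Ground libraries against 2.43, 3.62 and 2.84 CPM in the Space libraries, or 137 counts in Ground and 198 in Space. All 3 Space libraries lay above the 3 Ground libraries, though Ground-3 and Space-1 differed by less than their counting error (exact 95% Poisson intervals 1.82 to 3.14 and 1.85 to 3.13 CPM). The log2 fold change was 0.50 (SE 0.25, 95% interval -0.083 to 1.08, unadjusted p = 0.0835 and adjusted p = 0.9999 in edgeR), and the value was 0.33 to 0.62 when any 1 library was left out. Rspo3 went the other way on few counts, with 10, 9 and 11 counts in the Ground libraries against 6, 4 and 1 in the Space libraries. It was removed by the filter, and in a fit without the filter its log2 fold change was -1.45 (SE 0.63, unadjusted p = 0.0413 and adjusted p = 0.999995 in edgeR). All 3 Space libraries lay below the Ground libraries. When 1 library was left out, which brought Rspo3 past the filter, the value was -1.92 to -0.96 with unadjusted p from 0.0257 (without Space-1) to 0.0906 (without Space-3), and the adjusted p in edgeR was at least 0.9997. The part of the feeder cells in this value was not tested. Rspo3 was named after its values were seen. Lgr5, a receptor and Wnt target of intestinal stem cells, had 30 counts, 15 in each group, and was not tested.

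**Figure D4:**
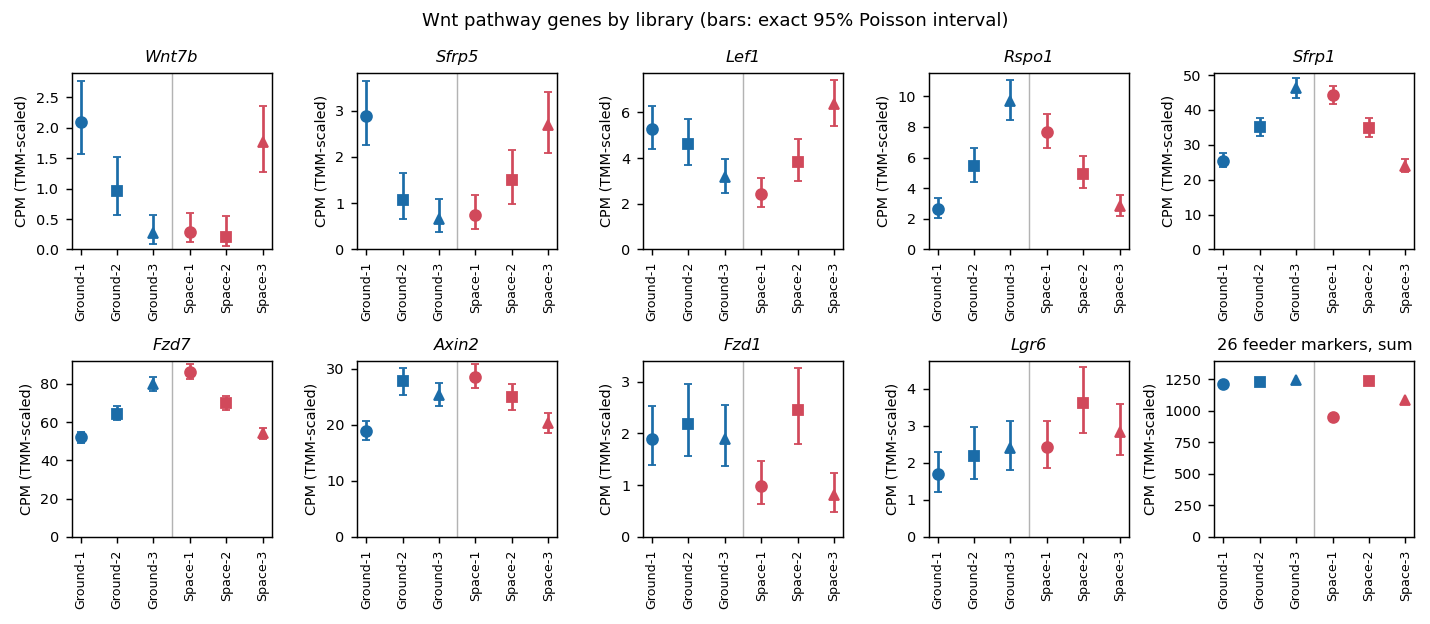
CPM by library (x axis) of 9 members and of the summed fibroblast markers (y axis from 0, scale set per panel). Points are libraries, coloured by group, and bars are exact 95% Poisson intervals of the counts. Wnt7b, Sfrp5 and Lef1 are high in Ground-1 and Space-3, Rspo1, Sfrp1 and Fzd7 are high in Ground-3 and Space-1, and Fzd1 and the marker sum are low in Space-1 and Space-3.

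The cytoplasmic members were abundant and even. Ctnnb1, which encodes beta-catenin, had 578.2, 611.2 and 631.7 CPM in the Ground libraries against 636.8, 596.1 and 575.9 CPM in the Space libraries. These values overlapped over their whole range (mean ± SD over 3 libraries, 607.1 ± 27.0 CPM for Ground and 602.9 ± 31.0 CPM for Space), and the log2 fold change was -0.0098 (SE 0.063, 95% interval -0.16 to 0.14). Axin1, the scaffold of the complex that degrades beta-catenin, had the same lowest and highest libraries, from 151.1 CPM in Space-3 to 177.5 in Space-1. Of the Dishevelled genes, Dvl2 had 34.5 CPM per kb, and Dvl3 and Dvl1 had 18.1 and 17.6 with overlapping ranges. The highest library of Dvl2 was 1.06 times the lowest, the smallest ratio among the tested members. The 5 log2 fold changes lay between -0.037 and 0.048, with standard errors of 0.052 to 0.077.

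In the nucleus Tcf7 was by far the main Tcf or Lef gene. Its values were 288.1, 288.5 and 261.2 CPM in the Ground libraries against 262.2, 279.6 and 288.4 CPM in the Space libraries, and the groups overlapped (log2 fold change -0.013, SE 0.065). Per length, Tcf7 stood at 105.9 CPM per kb against 2.32 for Tcf7l1, 0.708 for Tcf7l2 and 0.487 for Lef1. Tcf7l1, mostly a repressor of Wnt targets, had 9.80, 9.48 and 9.51 CPM in the Ground libraries against 8.77, 7.89 and 9.24 CPM in the Space libraries. The Space values lay below the Ground values without overlap, and the difference did not pass the test (log2 fold change -0.15, SE 0.13, unadjusted p = 0.267 and adjusted p = 0.9999 in edgeR). Tcf7l2 had 5.52 to 6.31 CPM in Ground and 5.72 to 7.49 CPM in Space.

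Lef1 and Axin2, both known targets of the pathway, took opposite orders over the libraries. Lef1 had 5.27, 4.63 and 3.16 CPM in the Ground libraries against 2.43, 3.84 and 6.36 CPM in the Space libraries, so Ground-1 and Space-3 were highest and Ground-3 and Space-1 lowest. Axin2, a feedback inhibitor often used as a readout of beta-catenin activity, had 18.9, 27.7 and 25.3 CPM in the Ground libraries against 28.5, 24.8 and 20.3 CPM in the Space libraries. Here Ground-1 and Space-3 were the lowest. Neither gene differed between the groups beyond its spread (log2 fold change -0.045, SE 0.36, for Lef1 and 0.036, SE 0.17, for Axin2). Sp5, another direct target and no member, was named after its values were seen because it bears on this contrast. It had 19.7, 27.0 and 45.9 CPM in the Ground libraries against 44.4, 25.5 and 19.5 CPM in the Space libraries, lowest in the same libraries as Axin2. Most listed targets did not share this order. Among the 20 tested target genes of the list that holds Sp5, Ground-1 and Space-3 were the 2 lowest libraries in 3. They were the 2 highest in 10. Of all tested genes, 19.7% had them as the 2 lowest and 20.0% as the 2 highest. The promoter windows of the members Axin2 and Lef1 are given for comparison, for Axin2 at chr11:108920099-108920398 and for Lef1 at a start inside the gene, chr3:131156044-131156343. Both lie on the plus strand of GRCm38.p6 (RefSeq). The Axin2 window held no match to the consensus, nor did the other 3 Lef1 windows, and this one held 1 match on the opposite strand, in capitals, beginning 147 bases before the start site.
Axin2: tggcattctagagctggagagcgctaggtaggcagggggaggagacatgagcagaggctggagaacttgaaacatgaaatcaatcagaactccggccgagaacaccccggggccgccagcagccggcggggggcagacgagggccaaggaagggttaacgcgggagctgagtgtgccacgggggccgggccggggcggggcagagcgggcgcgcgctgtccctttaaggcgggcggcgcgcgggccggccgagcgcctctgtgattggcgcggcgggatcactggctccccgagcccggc
Lef1: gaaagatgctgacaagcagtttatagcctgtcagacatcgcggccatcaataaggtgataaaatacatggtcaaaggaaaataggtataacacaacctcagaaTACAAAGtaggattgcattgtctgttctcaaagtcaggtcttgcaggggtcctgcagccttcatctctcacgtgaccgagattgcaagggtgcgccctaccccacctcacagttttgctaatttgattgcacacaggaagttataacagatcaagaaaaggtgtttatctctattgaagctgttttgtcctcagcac

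The other genes of the pathway were taken from a list of 95 genes outside the symbol rule, in 8 groups, of which 89 were tested. In edgeR's test 0 of the 89 passed and 0 had an unadjusted p under 0.05, with 50 higher and 39 lower in Space and a median log2 fold change of 0.0090. The 20 tested genes of the beta-catenin degradation complex, such as Apc and Gsk3b, had log2 fold changes between -0.046 and 0.12. The 15 nuclear cofactors lay between -0.10 and 0.091, the 12 planar polarity genes between -0.067 and 0.59, the 11 tested co-receptors between -0.31 and 0.077 and the 4 genes of receptor turnover between -0.12 and 0.19. The 3 genes of ligand secretion and release lay between -0.22 and 0.11 and the 4 tested secreted inhibitors between -0.15 and 0.15. Of the 20 tested target genes, 9 were higher and 11 lower, between -0.64 and 0.12. By the smallest p in each direction, the genes higher in Space were Celsr3, a polarity cadherin (mean ± SD over 3 libraries, 0.914 ± 0.17 CPM for Ground and 1.37 ± 0.56 CPM for Space, log2 fold change 0.59, SE 0.36), and Crebbp, a histone acetyltransferase (0.073, SE 0.050). Those lower were Cd44, a cell surface receptor (4.04 ± 0.32 and 2.97 ± 1.05 CPM, -0.45, SE 0.29), and Wls, which carries Wnt ligands to the cell surface (4.35 ± 0.26 and 3.74 ± 0.64 CPM, -0.22, SE 0.19). Cd44 was lowest in Space-1, at 1.77 CPM, as was the fibroblast marker sum. In Space-2 Cd44 also lay below the Ground values, at 3.41 CPM, where the marker sum was 1241 CPM. The part of the feeder cells in these values was not tested. Without overlap between the groups were 3 of the 89, or 3.37%, where 3.59% of all tested genes had none.

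Over all tested protein-coding members, Ground-3 and Space-1 were the 2 highest libraries in 13 of 41, or 31.7%, against 23.5% of all tested genes. Ground-1 and Space-3 were the 2 highest in 10, or 24.4%, against 20.0%, and Ground-2 and Space-2 in 4, or 9.76%, against 10.1%. The order of the libraries was thus also common in the rest of the transcriptome, and whether the shares of the members differ from those of all genes was not tested. In the list of 20 tested target genes the 2 highest libraries were Ground-1 and Space-3 in 10, against 20.0% of all tested genes. They were Ground-3 and Space-1 in 3 of the 20, against 23.5%. Both orders thus occurred among targets, the first more often, and whether these shares differ from those of all genes was not tested.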

How the data were processed

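The authors deposited raw counts per gene for 6 RNA-seq libraries. Per the labels, the submitters' processing notes name bcl2fastq 2.20, cutadapt 4.1, HISAT2 2.2.1, HTSeq 2.0.2 and mm10. The strand setting of the counting was not stated. The library kit and read layout differ between the labels and the study's methods.

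Counts were scaled by TMM and filtered with filterByExpr, which left 15104 genes, and Space was compared with Ground by the quasi-likelihood test of edgeR 4.0.16 (R 4.3.3) with Benjamini-Hochberg adjustment over all of them and a threshold of 0.05. Intervals of log2 fold changes use the SE and a t quantile. Poisson intervals cover counting error only. Gene positions and exon lengths came from GENCODE M21 and promoter windows from RefSeq on GRCm38.p6. DESeq2 1.42.0 and limma-voom (limma 3.58.1) were run as other tests, scaling was changed to RLE or to total counts, the filter was dropped or set to at least 10 counts in 3 libraries, a replicate block was added, and each library was left out in turn. The chi-square comparison of library pairs used genes with at least 25 counts in a pair, a minimum that was raised slightly after its values were seen, with little effect on them. The scripts were tested on simulated data.

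Named genes were the 5 tested members with the highest mean CPM in each role, any member with an unadjusted p under 0.05, untested members with their counts and, of the other pathway genes, the 2 with the smallest p in each direction. Lower receptors and ligands are given by level only. The members and lists were chosen with earlier results of these data known. The study describes the RNA-seq as using 3 lines of Space and Ground GS cells. No label ties libraries to these lines or to separate cultures, so p-values measure the spread between these libraries, which may be technical.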

Additional observations from a re-analysis of the deposited data

How the results depend on the processing

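In all 13 alternatives 0 members, 0 other pathway genes and 0 of all genes passed the adjusted threshold. Genes with an unadjusted p under 0.05 numbered 45 with DESeq2, 63 with the replicate block and 192 without the filter, against 92. Same-numbered libraries did not resemble each other for numbers 1 and 3, while Ground-2 resembled Space-2 (median chi-square relative to sampling noise 2.68). Deviations of same-numbered libraries correlated at -0.48, 0.28 and -0.60 over 1000 genes, and 1 of the Ground libraries correlated best with its own number. With the replicate block 0 genes passed. Among 442 values of 34 named genes under the alternatives, 392 kept their sign and 50 changed it, in 21 genes, and none became significant. With total counts, Rspo4 was 0.014, Lgr4 0.016, Ctnnb1 0.026 and Tcf7 0.022, and the median of the cytoplasmic members was 0.050. The median over all tested genes moved as well, from -0.0020 with TMM to 0.033 with total counts. With limma-voom Wnt3 was -0.0043.

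Leaving out 1 library gave these ranges of log2 fold changes. Wnt3 ran from -0.083 to 0.094, Lrp5 from -0.044 to 0.10, Lrp6 from -0.0061 to 0.11, Fzd3 from -0.13 to 0.011, Fzd7 from -0.081 to 0.27 and Fzd2 from -0.26 to 0.016. Sfrp2 ran from -0.26 to 0.16, Sfrp1 from -0.28 to 0.19, Dkk3 from -0.18 to 0.058, Sfrp5 from -0.49 to 0.94 and Dkk2 from -0.61 to 0.054. Rspo2 ran from -0.065 to 0.091, Rspo4 from -0.19 to 0.081, Lgr4 from -0.074 to 0.042 and Rspo1 from -0.61 to 0.37. Ctnnb1 ran from -0.051 to 0.025, Axin1 from -0.044 to 0.074, Dvl3 from -0.0099 to 0.11, Tcf7 from -0.054 to 0.024, Axin2 from -0.11 to 0.16 and Lef1 from -0.48 to 0.24. Role medians ran from -0.054 to 0.033 for receptors, -0.19 to 0.058 for antagonists, -0.014 to 0.012 for cytoplasmic members, -0.28 to 0.015 for ligands and -0.054 to 0.015 for nuclear members. The cause was not tested. The fibroblast marker sum was lower in Space by 64.9 to 212 CPM.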
